A study of Homo sapiens with 2 samples.

Results

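The 35 genes described here are mitotic kinases, cyclins and genes of the kinetochore, the spindle and cell division. They were chosen by name, and all 35 were found, out of 19362 genes in the deposited table, by matching Ensembl identifiers to symbols. RNA was sequenced from FTC-133, an established human cell line from a follicular thyroid carcinoma, in 2 libraries. One, the control library, was from cells given a control siRNA. The other, called the knockdown library, was from cells given siRNA against CHI3L1, the gene of a secreted chitinase-like glycoprotein. Both groups are the same single cell line, and the time after transfection was not given in the sources used here. With 1 library per group there is no replicate check and no p-value, and every comparison is of these 2 libraries, not of the conditions.

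Cells enter mitosis when the kinase CDK1, bound to cyclin A or cyclin B, becomes active. The chromosomes then attach through kinetochores to the microtubules of the spindle, and a checkpoint holds back the anaphase-promoting complex until all are attached. That complex, a ubiquitin ligase, marks securin and the cyclins for destruction, after which the chromosomes separate and the cell divides. Most of these genes are transcribed late in the cell cycle, so their RNA is often read as a measure of how much a cell population proliferates. In a bulk sample, fewer cells in mitosis and less RNA per mitotic cell cannot be told apart.

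Values are CPM, the deposited counts per unit of library depth, from 15837449 reads in the control library and 19467345 in the knockdown library. The columns sum to 1001495 and 998507 CPM, so the deposited values carry a small scaling factor beside library size. The log2 fold compares knockdown with control after adding 1 CPM to each, and a gene is called higher or lower at 1.5-fold (0.58 on that scale). Ratios carry a 95% exact (Clopper-Pearson) interval from the reads of both libraries, which covers counting error only. CHI3L1 had 140 CPM in the control library and 48.6 CPM in the knockdown library, a ratio of 0.347 (0.321 to 0.374). The thyroid transcription factor genes PAX8 (82.8 and 71.2 CPM) and NKX2-1 (88.6 and 112 CPM) were detected, whereas thyroglobulin (TG, named after its value was seen) had 10 and 14 reads. Of 6 immune markers, 1 was in the table (PTPRC, 12 and 8 reads), and 3 of 4 endothelial markers summed to 11.3 and 9.75 CPM. All 6 fibroblast markers were listed and summed to 1261 and 2224 CPM, most of it COL1A1 (642 and 1429 CPM) and THY1 (558 and 745 CPM). The other 4 had 819 and 784 reads (LUM), 113 and 154 (PDGFRB), 19 and 29 (DCN) and 9 and 2 (PDGFRA). The part of other cell types in the results was not tested.

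As a whole the mitotic genes were at nearly the same level in both libraries, with CDK1 as the main exception. All 35 averaged 1 CPM or more, the level required for a call. Of them, 4 were lower by 1.5-fold or more after knockdown (CDK1, HMMR, NUF2 and TTK), 0 were higher by that much, and 31 were within 1.5-fold. The share called lower, 11.4%, was near that of all 14815 tested genes, where 13.4% were lower and 7.73% higher. The median log2 fold was 0.07, against 0.01 over all tested genes, with 19 members above 0 and 16 below. This small median took the opposite sign, −0.03, when folds were centred on genes averaging 50 CPM or more. At 2-fold, 3 members (8.57%) were lower (CDK1, HMMR and NUF2), against 4.41% of all tested genes, and 0 higher, against 1.03%. Folds went with transcript length, so values are also given after a correction for length and GC content, described below, and called corrected folds.

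Together the 35 genes had 61119 reads in the control library, 0.386% of the total (95% exact interval 0.383 to 0.389), and 70786 reads, or 0.364% (0.361 to 0.366), in the knockdown library. The ratio of their summed CPM was 0.939 (0.929 to 0.95). Without CDK1 it was 1.03 (1.02 to 1.04), on the other side of 1.

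**Figure D1:**
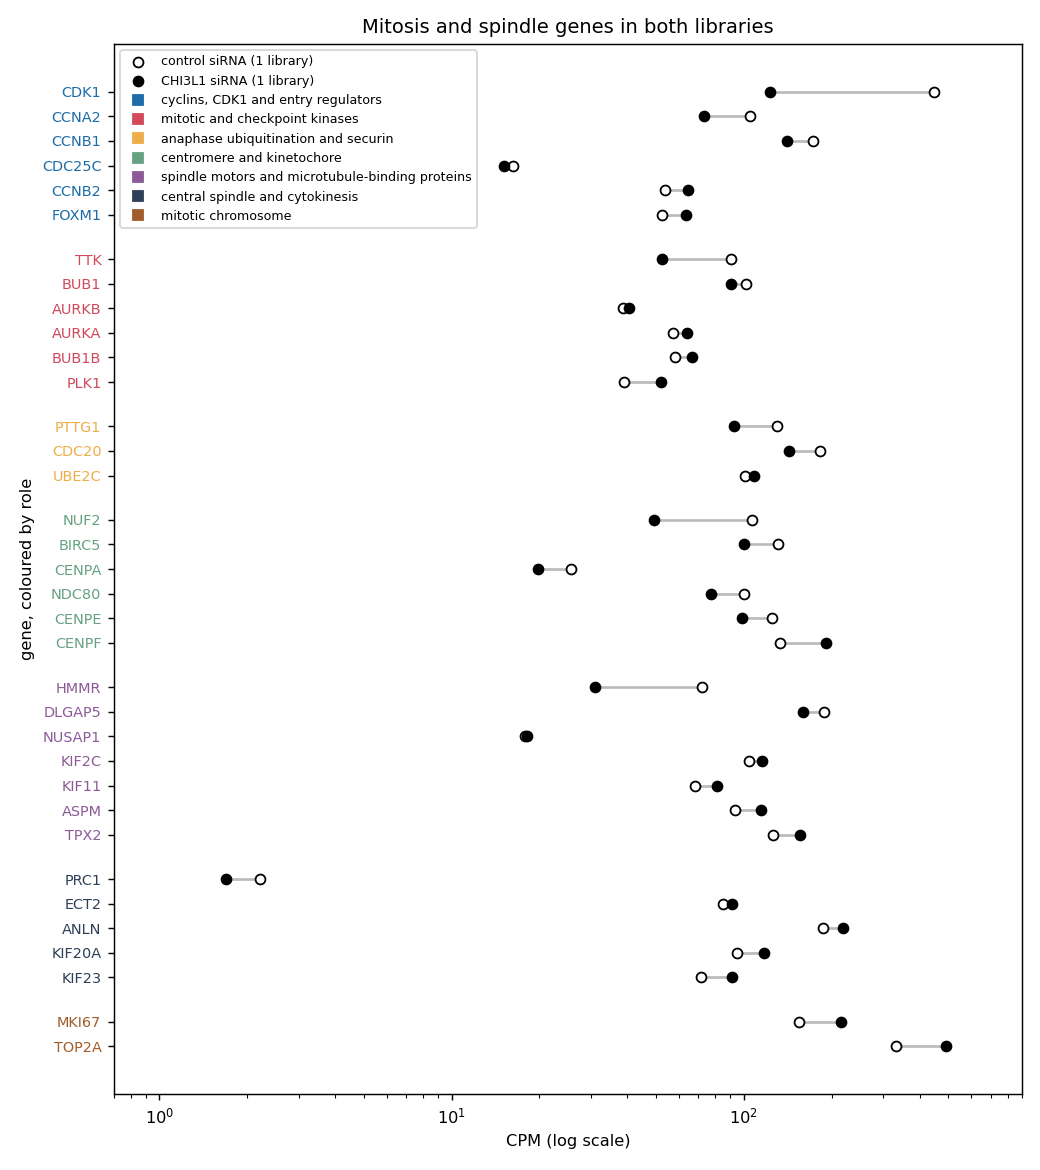
CPM (log axis) of the 35 mitosis and spindle genes in the control library (open circles) and the knockdown library (filled circles), 1 library each, grouped and coloured by role. CDK1 goes from 449 to 123 CPM, the widest gap, while most pairs of circles lie close together.

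Promoters of mitotic genes commonly carry CCAAT boxes, bound by the factor NF-Y, and a cell cycle genes homology region (CHR), bound by MuvB. Both motifs were searched in RefSeq windows (GRCh38.p14) of 300 bases, from 250 before to 50 after each gene's start, on both strands. The CHR was searched as TTTGAA or TTCGAA and the CCAAT box as CCAAT, and the motifs can overlap by a base, as in the MKI67 stretch below. Of the 35 members, 29 had a window, 36 windows in all, and FOXM1, AURKA, TTK, UBE2C, BIRC5 and TPX2 had none. A CHR was in 69.4% of member windows and in 16.4% of all 35116 windows, and a CCAAT box in 75% against 34.6%. Both were in 55.6% of member windows against 6.38% of all. The share with both was 21.1% among 171 windows of the other mitotic genes. A match is a run of letters and not a site. The 22 members with a CHR had a median log2 fold of 0.06 and a range from −1.86 (CDK1) to 0.56 (TOP2A), and the 7 without one a median of −0.29 and a range from −0.51 to 0.31.

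The stretches below are bases before the start that lie in no annotated exon. They are shown because the member with the lowest fold, CDK1, and members with folds above 0 carry the same letters in their windows. Each is written 5′ to 3′ on the gene's strand, with CHR and CCAAT letters in capitals. The CHR of CENPF lies after the start and that of CCNB2 in exonic bases before it, so neither is in its stretch.
CDK1 (log2 fold −1.86; chr10:60778131-60778330, plus strand): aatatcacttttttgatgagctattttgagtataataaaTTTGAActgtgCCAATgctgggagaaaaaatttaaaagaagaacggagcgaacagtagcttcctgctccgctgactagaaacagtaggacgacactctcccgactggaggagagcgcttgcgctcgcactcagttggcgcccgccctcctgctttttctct
CCNB2 (log2 fold 0.25; chr15:59104896-59105077, plus strand): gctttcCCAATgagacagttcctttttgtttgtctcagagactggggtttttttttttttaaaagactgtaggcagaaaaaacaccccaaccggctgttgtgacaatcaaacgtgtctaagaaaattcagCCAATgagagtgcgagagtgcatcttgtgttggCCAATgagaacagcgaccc
MKI67 (log2 fold 0.47; chr10:128126424-128126623, minus strand): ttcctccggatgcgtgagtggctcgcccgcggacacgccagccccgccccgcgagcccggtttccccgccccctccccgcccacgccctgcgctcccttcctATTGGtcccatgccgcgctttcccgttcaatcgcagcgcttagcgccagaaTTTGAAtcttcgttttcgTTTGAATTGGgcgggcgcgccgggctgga
CENPF (log2 fold 0.52; chr1:214602995-214603194, plus strand): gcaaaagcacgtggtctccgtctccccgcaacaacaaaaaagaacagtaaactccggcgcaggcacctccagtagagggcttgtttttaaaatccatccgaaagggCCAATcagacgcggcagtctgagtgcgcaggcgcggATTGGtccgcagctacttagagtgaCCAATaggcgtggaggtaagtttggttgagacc
TOP2A (log2 fold 0.56; chr17:40417951-40418146, minus strand): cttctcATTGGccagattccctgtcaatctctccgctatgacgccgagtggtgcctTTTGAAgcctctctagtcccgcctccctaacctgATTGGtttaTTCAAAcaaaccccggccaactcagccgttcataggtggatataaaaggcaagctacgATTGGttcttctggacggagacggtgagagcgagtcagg
The CDK1 stretch is from the first of its RefSeq windows and holds 1 CHR and 1 CCAAT box. A second CDK1 window had 3 CHR and 2 CCAAT matches, all outside the stretch shown. The TOP2A stretch holds both motifs more than once. Promoters with these letters belonged to members at both ends of the range of folds, with only CDK1 shown at the lower end. HMMR and NUF2 had no stretch free of exons, and TTK had no window. The part of these motifs in the folds was not tested.

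Among cyclins, CDK1 and the regulators of mitotic entry, the kinase and its cyclins differed in how far apart the libraries stood. CDK1 (ENSG00000170312, GRCh38 chromosome 10, 60778331 to 60794852, plus strand) is the cyclin-dependent kinase that drives entry into mitosis. It had 449 CPM (7093 reads) in the control library and 123 CPM (2391 reads) in the knockdown library. That is a log2 fold of −1.86 and a ratio of 0.273 (0.261 to 0.286). Only 0.317% of the tested genes, 47 in all, had a lower fold. Its cyclin partners did not stand as far apart. CCNB1, cyclin B1, had 172 and 141 CPM, a ratio of 0.819 (0.776 to 0.863). CCNA2, cyclin A2, had 105 and 73.1 CPM, a ratio of 0.698 (0.650 to 0.750), while CCNB2, cyclin B2, lay on the other side of 1, at 53.8 and 64.3 CPM and a ratio of 1.20 (1.10 to 1.31). CDC25C, the phosphatase that activates CDK1, had 16.3 and 15.1 CPM, with an interval that held 1 (0.782 to 1.10). FOXM1, a transcription factor that drives mitotic genes, had 52.4 and 63.7 CPM, a ratio of 1.21 (1.11 to 1.33).

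Before the correction, the genes of the small subunits that bind CDK1 were also lower. CKS2 had 553 CPM in the control library and 166 CPM in the knockdown library (log2 fold −1.73), and CKS1B had 128 and 51.5 CPM (−1.30). Their corrected folds were −0.69, still lower, and −0.46, within 1.5-fold. BORA, a cofactor in the activation of PLK1, had a log2 fold of −0.70 and was just within 1.5-fold after correction. In all, 4 of the 13 other entry regulators (30.8%) were at least 1.5-fold lower, against 13.4% of all tested genes, and 0 higher, against 7.73%. Their median was 0.15. After correction 1 was lower (7.69%, against 7.32% of coding genes) and 0 higher, against 6.0%.

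Among mitotic and checkpoint kinases, only TTK was past 1.5-fold, and it was within 1.5-fold after correction (−0.46) and within 2-fold. TTK (ENSG00000112742, chromosome 6, 80003887 to 80042527, plus strand), the MPS1 kinase that starts checkpoint signalling at unattached kinetochores, had 90.7 CPM in the control library and 52.4 CPM in the knockdown library, a ratio of 0.578 (0.532 to 0.626). PLK1, a kinase needed for spindle assembly and mitotic entry, differed the other way, with 39.1 and 52.0 CPM and a ratio of 1.33 (1.20 to 1.47). AURKA, the kinase of spindle poles, had 57.4 and 64.2 CPM. AURKB, the kinase that corrects wrong attachments, had 38.6 and 40.6 CPM with an interval that held 1 (0.946 to 1.17). The checkpoint proteins BUB1 (102 and 90.7 CPM) and BUB1B (58.0 and 66.7 CPM) lay on opposite sides of 1, at ratios of 0.887 and 1.15.

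One checkpoint gene outside these 35 was much lower. MAD2L1, which encodes MAD2, the inhibitor of CDC20, had 257 CPM (4061 reads) in the control library and 79.1 CPM (1543 reads) in the knockdown library, a log2 fold of −1.69. Its corrected fold was −1.53. SGO2, a shugoshin that protects centromeric cohesion, had a log2 fold of −0.77 and a corrected fold of −0.45, within 1.5-fold. MAD1L1, the partner of MAD2, had 34 and 68 reads (log2 fold 0.51). These were the 3 largest folds among 9 other checkpoint and chromosomal passenger genes. Of the 9, 2 (22.2%) were called lower, against 13.4% of all tested genes, and 0 higher, against 7.73%. After correction 1 (11.1%) was lower, against 7.32% of coding genes, and 0 higher, against 6.0%. The 4 genes of the chromosomal passenger complex lay on both sides of 0. Their log2 folds were −0.38 for BIRC5 and 0.07 for AURKB, and 0.34 for CDCA8 and 0.48 for INCENP, the last 2 named after their values were seen.

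The 3 members that time anaphase were within 1.5-fold, although PTTG1 was past it when folds were centred on genes averaging 50 CPM or more. CDC20, the activator of the anaphase-promoting complex, had 183 and 143 CPM, a ratio of 0.781 (0.741 to 0.823). PTTG1, which encodes securin, the inhibitor of separase, had 131 and 92.8 CPM, a ratio of 0.711 (0.667 to 0.758). UBE2C, the ubiquitin-conjugating enzyme that works with the complex, had 101 and 109 CPM, a ratio of 1.08 (1.01 to 1.15). Of 17 other subunits and partners of the complex, 5 were lower (29.4%, against 13.4% of all tested genes) and 0 higher, against 7.73%. The median of the 17 was −0.18. After correction 2 were lower (11.8%, against 7.32% of coding genes) and 1 higher (5.88%, against 6.0%), with a median of 0.01. ANAPC10 had 296 reads in the control library and 87 in the knockdown library (log2 fold −1.85), ANAPC11, the RING subunit, had 261 and 121 CPM (−1.10), and UBE2S, which extends ubiquitin chains, had 413 and 246 CPM (−0.75). After correction ANAPC10 (−0.84) and UBE2S (−0.68) were still lower, and ANAPC11 (−0.43) was within 1.5-fold.

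Centromere and kinetochore genes were mostly on the lower side, with a median log2 fold of −0.37 over 6 members. NUF2 (ENSG00000143228, chromosome 1, 163266576 to 163355764, plus strand) encodes a subunit of the Ndc80 complex, which holds microtubule ends at the kinetochore. It had 106 CPM in the control library and 49.5 CPM in the knockdown library, a ratio of 0.465 (0.429 to 0.503). NDC80, its direct partner in the complex, had 99.9 and 77.3 CPM, a ratio of 0.774 (0.721 to 0.831), and the intervals of both did not overlap. The other subunits, named after their values were seen, had log2 folds of −0.32 (SPC24) and −0.58 (SPC25), so all 4 subunits were below 0 before correction, and SPC25 was at 0.02 after it. BIRC5 (survivin, 131 and 100.2 CPM), CENPA, the histone variant that marks centromeres (25.7 and 19.7 CPM), and the kinesin CENPE (125 and 98.6 CPM) had ratios of 0.765, 0.767 and 0.788. CENPF, a large protein of the outer kinetochore, was the sole one of the 6 above 0 before correction (CENPA was at 0.03 after it), with 133 and 191 CPM and a ratio of 1.44 (1.36 to 1.51).

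Other genes of this structure had the lowest median log2 fold of the 9 mitotic lists beside the members, −0.45 before correction. Of these 32 centromere and kinetochore genes, 10 were at least 1.5-fold lower (31.25%, against 13.4% of all tested genes) and 0 higher, against 7.73%. CENPQ had 51.2 and 12.2 CPM (log2 fold −1.99), CENPK 94.2 and 27.2 CPM (−1.75) and CENPW 102 and 34.1 CPM (−1.55). All 3 encode proteins of the inner kinetochore. After correction CENPQ (−1.14) and CENPK (−0.83) were still lower and CENPW (−0.40) was within 1.5-fold. The corrected medians were −0.11 for this list and −0.17 for the 6 members, the reverse of their order before. After correction 3 of the 32 were lower (9.38%, against 7.32% of coding genes) and 2 higher (6.25%, against 6.0%).

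Among spindle motors and microtubule-binding proteins, HMMR stood apart. HMMR (ENSG00000072571, chromosome 5, 163460203 to 163491945, plus strand), a hyaluronan receptor that also binds spindle microtubules, had 72.2 CPM in the control library and 31.0 CPM in the knockdown library, a ratio of 0.429 (0.388 to 0.474). The other 6 genes had log2 folds between −0.23 and 0.31. DLGAP5, a microtubule-binding protein of the spindle, had 188 and 160.1 CPM. TPX2, the activator of AURKA on the spindle, had 126 and 156 CPM, and ASPM, a spindle pole protein, had 93.1 and 114 CPM. The motors KIF11, which pushes the spindle poles apart, and KIF2C, which shortens microtubules, had ratios of 1.19 (1.10 to 1.29) and 1.11 (1.04 to 1.18). NUSAP1, another spindle protein, had 17.9 and 18.1 CPM. Of 26 other spindle and centrosome genes, 3 were lower (HAUS1, HAUS2 and PLK4, log2 folds −1.24, −0.73 and −0.67) and 1 was higher (NUMA1, 0.64, named after its value was seen). These were 11.5% and 3.85% of the list, against 13.4% and 7.73% of all tested genes. After correction 2 were lower (7.69%, against 7.32% of coding genes) and 0 higher, against 6.0%, with PLK4 just within 1.5-fold. HAUS1 and HAUS2 are subunits of augmin, which branches spindle microtubules, and PLK4 starts centriole duplication.

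Genes of the central spindle and cytokinesis were slightly higher in 4 of 5 cases, none past 1.5-fold. KIF23, the motor of centralspindlin, had 71.2 and 91.3 CPM, a ratio of 1.28 (1.19 to 1.38). KIF20A, a motor of the central spindle, had 94.7 and 118 CPM, a ratio of 1.24. ANLN (anillin), a scaffold of the contractile ring, had 186 and 218 CPM, and ECT2, the exchange factor that activates RhoA at the equator, 84.7 and 91.5 CPM, ratios of 1.17 and 1.08. PRC1, which bundles antiparallel microtubules, had only 35 and 33 reads (2.21 and 1.69 CPM), and its interval ran from 0.461 to 1.27. In GENCODE release 29, 57.6% of the exon bases of PRC1 are also exons of ENSG00000284946, a gene on the same strand with 88 and 91 reads, so the level of PRC1 is uncertain. Of 8 other cytokinesis genes, 1 was lower (12.5%, against 13.4% of all tested genes) and 0 higher, against 7.73%. The lower gene was SEPTIN7, a septin filament subunit, at 708 and 369 CPM (log2 fold −0.94).

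The 2 genes of mitotic chromosomes were the nearest to a call on the higher side, together with CENPF. TOP2A (ENSG00000131747, chromosome 17, 40388516 to 40417950, minus strand), the topoisomerase that untangles sister chromatids, had 332 CPM (5256 reads) in the control library and 492 CPM (9591 reads) in the knockdown library. Its log2 fold of 0.56 was just short of 1.5-fold, and the interval of its ratio ran from 1.43 to 1.53. MKI67, which encodes the proliferation marker Ki-67, had 155 and 215 CPM, a ratio of 1.39 (1.32 to 1.46). The folds of the proliferation markers MKI67 and TOP2A lay above 0 and that of CDK1 below it in the same comparison, but after correction MKI67 was at −0.04. Cohesin holds sister chromatids together, and condensin compacts them. Against 13.4% lower and 7.73% higher over all tested genes, 0 of 10 cohesin and 0 of 8 condensin genes were past 1.5-fold. These 2 lists had medians of 0.05 and 0.15. Their widest folds were 0.55 for SMC1A and −0.54 for STAG2 in cohesin, and 0.53 for NCAPG2 and −0.46 for NCAPH2 in condensin.

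**Figure D2:**
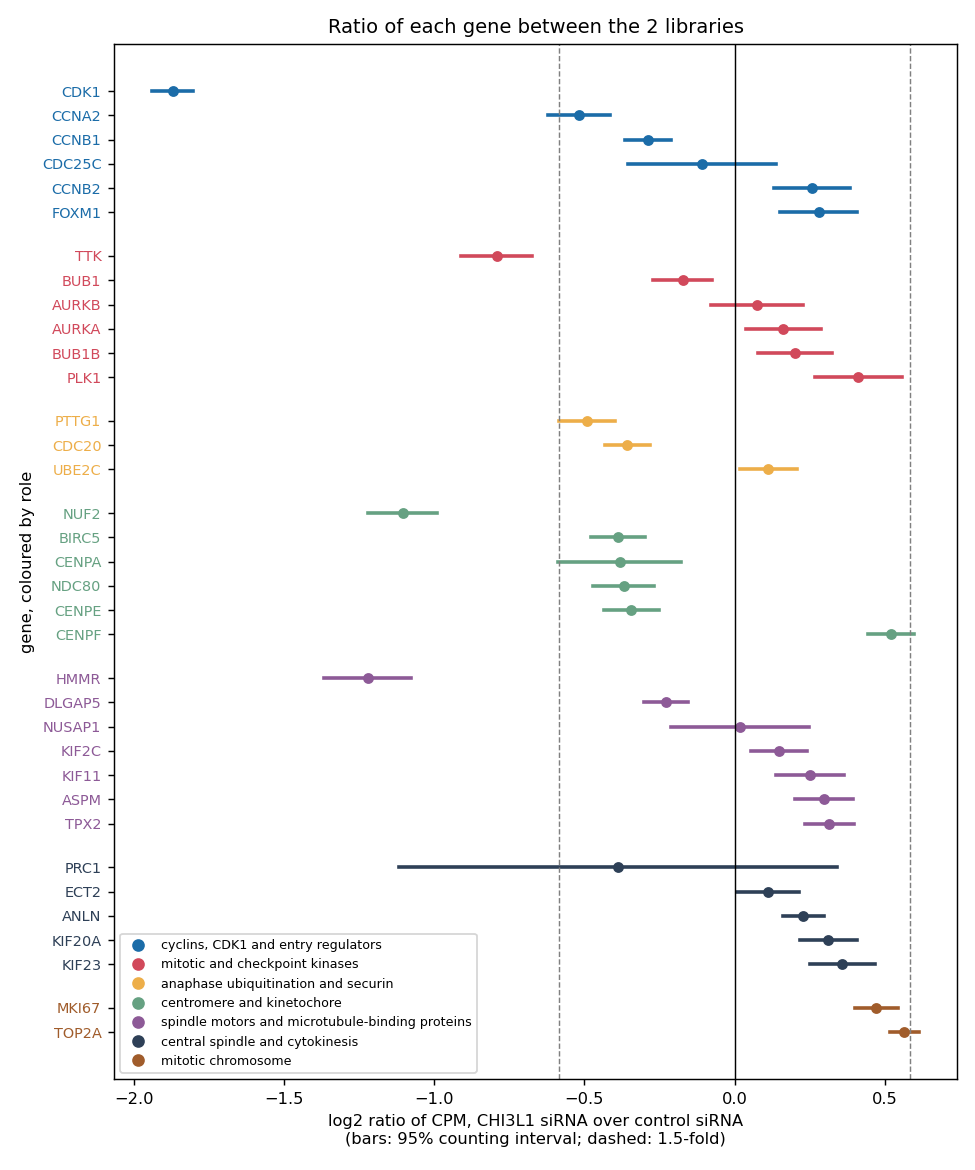
Log2 ratio of CPM, CHI3L1 siRNA over control siRNA, for each of the 35 genes by role, with no CPM added. Bars are 95% counting intervals and dashed lines mark 1.5-fold. CDK1, TTK, NUF2 and HMMR lie wholly left of the left dashed line, and TOP2A and CENPF touch the right one.

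Many of the smaller ratios were larger than counting error, which is small at this depth. The interval lay wholly above 1 for 17 members and wholly below 1 for 14, and held 1 for 4 (CDC25C, AURKB, NUSAP1 and PRC1). Over all tested genes these shares were 32.0% above and 29.7% below, against 48.6% and 40.0% of the members. The members had more reads, a median of 1580 in the control library against 362 for all tested genes, and intervals narrow with reads. The interval lay wholly beyond 1.5-fold for the same 4 lower members, against 8.40% of all tested genes, and for 0 members on the higher side, against 3.58%.

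Levels were compared between genes as CPM per kb of the annotated principal transcript. On this scale CDK1 held rank 1 of the 35 in the control library, at 234 CPM per kb, and rank 6 in the knockdown library, at 64.1. PTTG1 held rank 2 in both (122 and 86.8 CPM per kb). UBE2C was at rank 3 and then rank 1 (119 and 128 CPM per kb), and TOP2A at rank 7 and then rank 3 (57.7 and 85.4). NUF2 went from rank 8 to rank 19 (54.1 and 25.1 CPM per kb) and HMMR from rank 21 to rank 33 (24.2 and 10.4). PRC1 held rank 35 in both.

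Folds of the members went with the length of their transcripts, as they did over all genes. Spearman's rho between log2 fold and transcript length was 0.52 over the 35 members and 0.46 over 12660 protein-coding genes, and with coding length 0.54 and 0.46. With GC content it was 0.23 and 0.10. These are descriptions across genes of the same 2 libraries, and genes are not independent replicates. The 18 members with coding sequences of at most 2172 nt had a median log2 fold of −0.32, and the 17 longer ones 0.25. All 4 lower members were among the 18 with the lowest GC content (at most 43.2%), at 35.6% for CDK1, 36.1% for HMMR, 36.6% for TTK and 38.8% for NUF2. Other members of low GC content lay elsewhere: CENPE (35.3%), ECT2 (36.8%), ASPM (37.1%) and TOP2A (39.1%) had log2 folds of −0.34, 0.11, 0.29 and 0.56. The part of length and GC content in the differences between the libraries was not tested. The lengths are those of 1 annotated transcript per gene, which may not be the form these cells express.

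**Figure D3:**
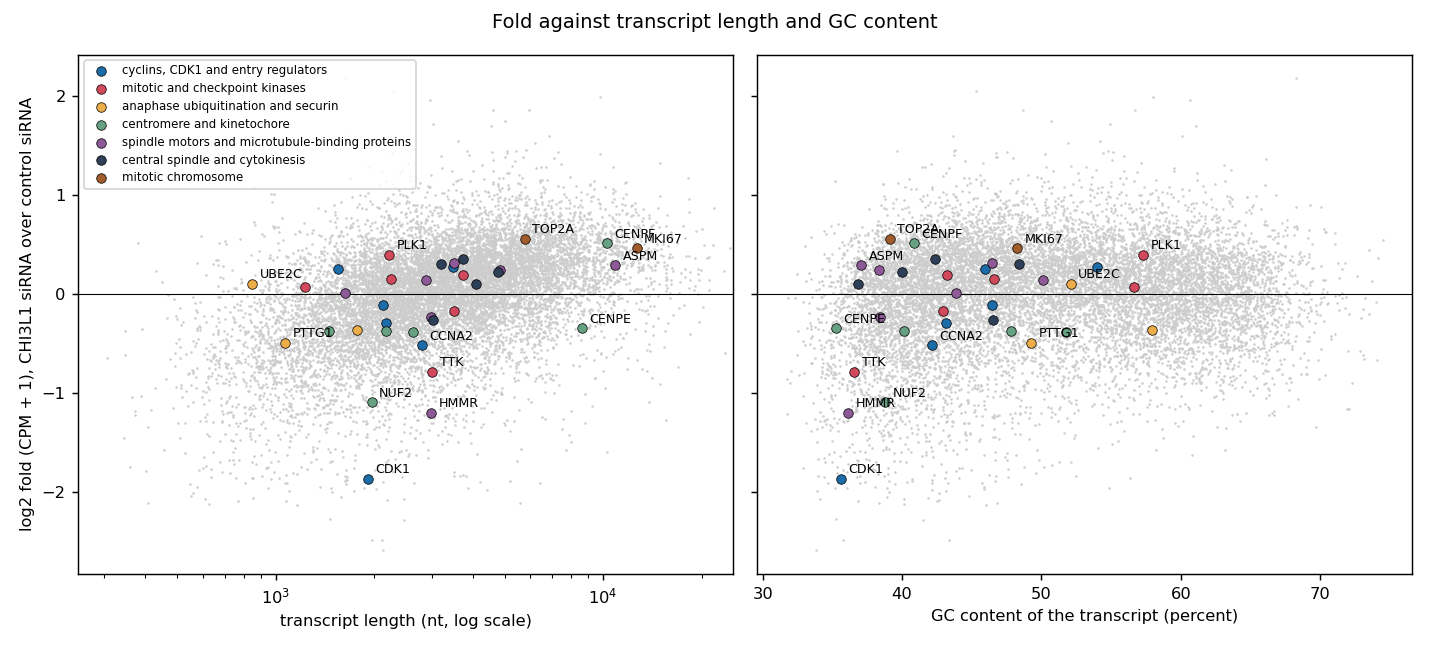
Log2 fold (CPM + 1) against transcript length (left, log axis) and GC content (right) for 12660 protein-coding genes (grey) and the 35 members (coloured by role). Long transcripts such as CENPF, MKI67 and ASPM lie above 0, with CENPE below, and CDK1, HMMR, TTK and NUF2 lie at the low-GC side.

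A smooth trend in transcript length, coding length and GC content was subtracted from the folds. It had been fitted to coding genes outside the lists used here. After it, 3 of 35 members (8.57%) were at least 1.5-fold lower, against 7.32% of 12660 coding genes, and 0 higher, against 6.0%. Without the correction, 12.5% of these coding genes were lower and 8.45% higher. CDK1 had a corrected log2 fold of −1.18, HMMR of −0.83 and NUF2 of −0.69, while TTK was within 1.5-fold at −0.46. MKI67, with the longest transcript, had a trend value of 0.51 and a corrected fold of −0.04, whereas TOP2A had 0.51 and CENPF 0.28 after correction. UBE2C, the shortest transcript of the 35 at 850 nt, had the highest corrected fold, 0.58, just short of 1.5-fold. CCNB2 was at 0.44 and PLK1 at 0.36. The median of the 35 was 0.02.

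**Figure D4:**
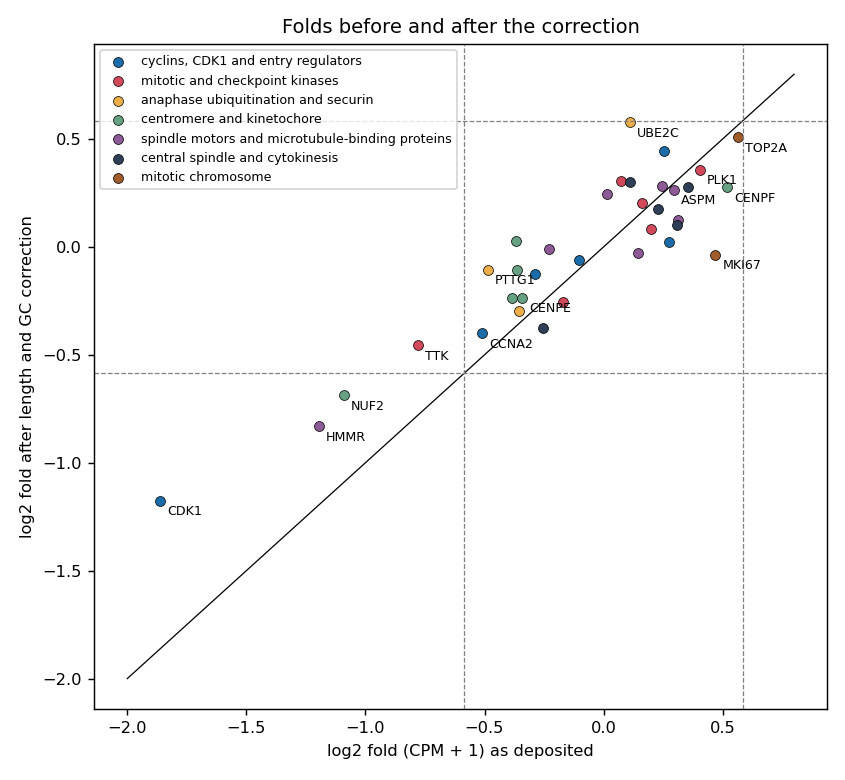
Log2 fold of the 35 members as deposited (CPM + 1, horizontal) and after the length and GC correction (vertical), coloured by role. The line marks equal values and dashed lines 1.5-fold. CDK1, HMMR and NUF2 stay below the lower dashed line and TTK is above it.

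Across the 133 other mitotic genes of the 9 lists, all of which averaged 1 CPM or more, 27 were at least 1.5-fold lower (20.3%, against 13.4% of all tested genes) and 2 higher, against 7.73%, with a median log2 fold of −0.04. The 2 higher genes were NUMA1 and RBL1 (p107, log2 fold 0.62). After correction 11 were lower (8.27%, against 7.32%) and 3 higher (2.26%, against 6.0%). These 3 were SKA1 (0.81), FBXO5 (0.74) and SKA3 (0.59), named after their values were seen, and NUMA1 (0.18) was within 1.5-fold. Before and after correction, lower genes lay in every list but cohesin and condensin. MuvB, which binds late cell cycle promoters, and its partners had 2 of 10 genes lower (20%, against 13.4%) and 1 higher (10%, against 7.73%). Its core subunits LIN9 and LIN52 had 23.8 and 9.75 CPM (log2 fold −1.21) and 25.4 and 14.9 CPM (−0.73). After correction LIN9 was still lower (−1.18), and LIN52 (−0.39) and RBL1 (0.51) were within 1.5-fold.

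**Figure D5:**
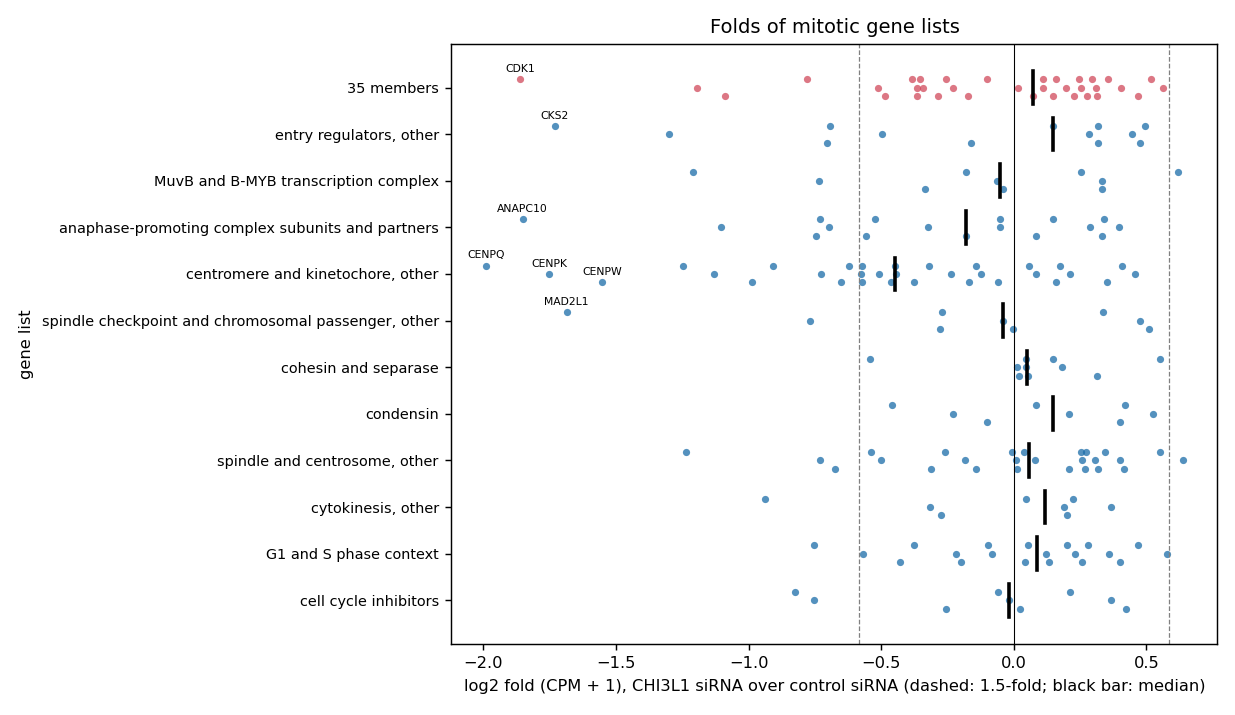
Log2 fold (CPM + 1) of each gene in the 35 members (red) and in the other cell cycle lists (blue), with black bars at medians and dashed lines at 1.5-fold. The list of other centromere and kinetochore genes has the lowest median, −0.45 before the length and GC correction, and the genes named in the plot are those at or below −1.5.

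Some reads could belong to other genes. For 10 members, exon bases are shared with a second listed gene, which is on the opposite strand for 9 of them, and the strand setting of the counting was not given in the sources used here. Apart from PRC1, only CDC25C had fewer control reads than its partner (257 against 558 for FAM53C, with 8.78% of exon bases shared). In the knockdown library CENPA also had fewer reads than its partner (384 against 631 for SLC35F6). That gene is on the same strand, shares 6.96% of the exon bases of CENPA and had 305 control reads. Of the 4 lower members, only NUF2 has such an overlap, of 5 bases. Named copies of members, mostly processed pseudogenes of genes such as UBE2C, PTTG1 and AURKA, number 17 in the annotation. Of these, 2 were in the table, UBE2CP2 (2 and 7 reads) and UBE2CP5 (10 and 18 reads).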

How the data were processed

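Total RNA of 2 libraries (Trizol, Illumina TruSeq kit, 1 ug each, per the labels' protocols) was sequenced, and the authors deposited values for 19362 Ensembl genes. HISAT2, featureCounts, Trimmomatic, FastQC, MultiQC and GRCh38 are named in the submitters' processing notes, with no versions. The annotation release, strand setting and normalisation tool were not given in the sources used here. The deposited unit is CPM, judged from the values: with 1 read worth 0.0632 and 0.0513 CPM and an offset of 0.001 read, 100% of values in each library came out as whole reads (tolerance 0.01 read). Every gene listed had at least 6 reads in 1 library. The precision at these depths is given as exact intervals of the ratio of reads, conditional on both libraries' reads together. No molecular identifiers are described, so these cover counting error only.

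Symbols, coordinates, transcript lengths and GC content came from the table of identifiers and GENCODE release 29 (GRCh38), and 12660 of 12688 tested coding genes had lengths (99.8%). Folds and the trend (splines, 5 degrees of freedom a term) were computed in Python 3.11.15 with scipy and patsy 1.0.2. The calculations were tested on simulated data. The text names all 35 members, CHI3L1, and in each other list up to 3 genes with the largest absolute log2 fold. Other genes named, among them TG, markers given as sums, overlapping genes and copies, were named after their values were seen. The members, lists and settings were chosen with earlier results of these data known. No count model and no test between groups was run, since each group is 1 library. Alternatives were pseudocounts of 0.5 and 10 CPM, no filter or an average of 10 CPM or more, trimmed-mean scaling, centring, a fold of 2, intervals wholly beyond 1.5-fold and the length and GC correction.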

Additional observations from a re-analysis of the deposited data

How the results depend on the processing

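No paired analysis was possible because each group is 1 library, and for the same reason no replicate could be left out. The 4 lower members, the same genes, were lower under both other pseudocounts, both other filters and the rule on intervals. The filters change no fold, and all 4 average more than 10 CPM, so the filters could change none of these calls. Trimmed-mean scaling moved folds by only −0.00096 on the log2 scale, since the deposited values already carry nearly that scaling, so it could change no call and shows nothing on stability. The lower members were 6 with centring (CCNA2 and PTTG1 added) and 3 at a fold of 2 and after the length and GC correction (without TTK). Of all tested genes, 17.4% were lower with centring, 4.41% at a fold of 2 and 8.40% by intervals. At pseudocounts of 0.5 and 10 CPM the shares were 15.0% and 6.82%, and after the correction 7.32% of coding genes were lower. No member was called higher under any setting, against shares of all genes from 1.03% (a fold of 2) to 8.75% (a pseudocount of 0.5 CPM). The median over members ranged between −0.03 with centring and 0.09 over members averaging 10 CPM or more. Centring put the median of all tested genes at −0.09. Of the other mitotic genes, the 27 lower became 37 with centring, 29 and 20 at pseudocounts of 0.5 and 10 CPM, 21 by intervals, 12 at a fold of 2 and 11 after the correction. The 2 higher became 3 at a pseudocount of 0.5 CPM and 1 at 10 CPM. There were 0 higher with centring, at a fold of 2 and with intervals wholly beyond 1.5-fold. After the correction 3 were higher, none of them among the 2. Folds moved by more than 0.5 of the log2 width of their counting interval for 23 of 35 members with the correction. The same held for 17 with centring and 3 at a pseudocount of 10 CPM, and no called fold changed sign. Apart from the filters, these settings change the folds or the rule by construction. Depth limits PRC1 most, with 33 reads in the knockdown library.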

Other observations

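Genes of the earlier cell cycle phases, which the lists held for context, were also at similar levels. Of 20 genes of G1 and S phase, 1 was at least 1.5-fold lower (5%, against 13.4% of all tested genes) and 0 were higher, against 7.73%. Their median log2 fold was 0.09, with 12 above 0 and 8 below. The lower gene was CDK4, a kinase that carries cells through G1, with 231 CPM in the control library and 136 CPM in the knockdown library (log2 fold −0.75). CDK6, its relative, had 154 and 231 CPM (log2 fold 0.58, just short of 1.5-fold). After the length and GC correction CDK4 was still lower (−0.69) and CDK6 was at 0.51. CCNE2, a cyclin E gene, had 187 and 149 reads (log2 fold −0.57, within 1.5-fold). The replication helicase genes MCM2 and MCM7, named after their values were seen, had log2 folds of 0.47 and 0.04.

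Among inhibitors of the cell cycle, 9 of 10 genes in the table averaged 1 CPM or more. Of these 9, 2 were lower (22.2%, against 13.4% of all tested genes) and 0 higher, against 7.73%. CDKN2A, which encodes p16 and ARF, had 926 and 523 CPM (log2 fold −0.82, and −0.37, within 1.5-fold, after the length and GC correction), and BTG2 had 30 and 14 reads (−0.75). RB1, the retinoblastoma gene, had 64.9 and 87.5 CPM (0.42). CDKN1A, which encodes p21 and was named after its value was seen, had 22.9 and 23.3 CPM.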
